A study of Mus musculus with 12 samples.

Results

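The clusters described here are the stretches of RNA that the authors listed for Puf60 with exon 5, the form of the splicing factor Puf60 whose message keeps exon 5, in mouse N2A cells. All 36227 clusters of the deposited table for this protein were taken, whatever their value, out of 124941 clusters in the 3 tables of the series. The others were 39454 clusters of Puf60 without exon 5 and 49260 of Rbm38. Crosslinking and immunoprecipitation (iCLIP) freezes contacts between protein and RNA with ultraviolet light, pulls the protein down and sequences the RNA that stays attached.

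N2A is a mouse neuroblastoma line, a dividing tumour line with features of immature sympathetic neurons. Each Flag-tagged protein was expressed from a Flp-in transgene switched on with 1 µg/ml doxycycline, and all cells received ultraviolet light at 150 mJ/cm2. Puf60 with exon 5 had 3 CLIP libraries, made with an anti-Flag antibody after 48 h of induction, and 1 size-matched input, a sample of the lysate that was not pulled down, taken after 24 h. The CLIP and input libraries of Puf60 without exon 5 and of Rbm38 were also induced for 24 h. Pull-down and induction time thus cannot be told apart in any log2 fold of Puf60 with exon 5. Where the Puf60 tables are set side by side, isoform, induction time and the separate single inputs cannot be told apart. The table gives 1 log2 fold of CLIP over input, 1 p-value and 1 adjusted p-value per cluster. Single libraries have no values in it. Replicate spread and library depth are therefore unknown, nothing says that the replicates were separate cultures, and no test over replicates was made. The statements below compare clusters of the authors' table with each other, and clusters are not replicates.

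Puf60 resembles the large subunit of the U2 auxiliary factor, U2af2. Both bind the pyrimidine tract, the run of C and U that lies before the AG at the end of an intron, and help the U2 snRNP find the 3′ splice site. Puf60 is also known as FIR, the repressor of the far upstream element binding protein Fubp1, which acts on the Myc gene. Exon 5 lies in the N-terminal part of the protein, and its inclusion varies between cells.

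A cluster is called enriched here where the authors' adjusted p was under 0.05 and the log2 fold was above 0. By this rule 14182 of the 36227 clusters (39.1%) were enriched, against 36.1% in the table of Puf60 without exon 5 and 50.9% in that of Rbm38. The log2 fold of all clusters had a median of 0.24, with quartiles at -0.66 and 2.32, and the enriched clusters had a median of 2.89. Of the enriched clusters 9848 (69.4%) lay more than 4-fold above input, 2394 more than 16-fold and 93 more than 64-fold. Clusters that are not enriched are not all at or below input: 299 of them had a log2 fold above 1, and 1806 clusters of the table have a p-value under 0.05 with an adjusted p of 1. On the other side, 5933 clusters (16.4%) had a log2 fold under -1. Most clusters were narrow: 28009 (77.3%) were 50 nt wide. The enriched share was 35.6% among clusters 50 nt wide and 55.2% among the 913 clusters at least 250 nt wide.

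The letters under the clusters could be read where a cluster lay inside a RefSeq promoter window, the 250 bases before and 50 bases after an annotated start on build GRCm38.p6, which is mm10. This held for 115 clusters on the gene's own strand, of which 34 were enriched. The stretches below are shown because they hold the runs of C and T that Puf60 is known to bind. They are written 5′ to 3′ on the strand of the gene, as DNA from RefSeq, with the longest unbroken run of C and T in capitals. The first 8 are among the 10 enriched clusters of highest log2 fold here, 1 per gene, once genes with only a predicted or locus name were left out.
Fubp3: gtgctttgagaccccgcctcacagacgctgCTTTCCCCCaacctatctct
Prpf40b: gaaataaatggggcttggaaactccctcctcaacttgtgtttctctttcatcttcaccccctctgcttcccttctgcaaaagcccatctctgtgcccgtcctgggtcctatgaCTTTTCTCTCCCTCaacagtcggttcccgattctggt
R3hdm2: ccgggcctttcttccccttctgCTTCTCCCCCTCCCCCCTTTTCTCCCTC
Grik5: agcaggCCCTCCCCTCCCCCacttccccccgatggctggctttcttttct
Ncoa6: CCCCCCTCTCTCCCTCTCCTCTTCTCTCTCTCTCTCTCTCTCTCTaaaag
Rfx3: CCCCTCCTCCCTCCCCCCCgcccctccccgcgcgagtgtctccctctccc
Gpr19: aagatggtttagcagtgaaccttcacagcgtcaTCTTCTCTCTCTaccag
Nt5dc2: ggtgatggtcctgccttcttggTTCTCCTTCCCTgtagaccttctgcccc

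In the authors' deposited table the log2 fold was 4.81 at Fubp3 (chr2:31572651-31572700, plus strand), 4.57 at Prpf40b (chr15:99303151-99303300, plus strand) and 4.22 at R3hdm2 (chr10:127380651-127380700, plus strand). It was 4.18 at Grik5 (chr7:25072486-25072535, minus strand), 4.02 at Ncoa6 (chr2:155440786-155440835, minus strand) and 3.91 at Rfx3 (chr19:28011186-28011235, minus strand) in the authors' deposited table. Gpr19 (chr6:134887786-134887835, minus strand) stood at 3.30 and Nt5dc2 (chr14:31134701-31134750, plus strand) at 3.23 in the authors' deposited table. Pcbp2 (3.72) and Zbtb18 (3.31) were the others of these 10 in the authors' deposited table, with longest runs of only 6 and 8 bases. Among the stretches shown the run reached 45 bases in Ncoa6, 28 in R3hdm2 and 19 in Rfx3. Of the genes left out, Gm35667 had the highest cluster of all, at 4.82 in the authors' deposited table, and its 100 bases were 1 unbroken run of C and T. Gm33272, at 4.26 in the authors' deposited table, had a longest run of only 5 bases and 47.5% pyrimidines. In Prpf40b, Ncoa6, Gpr19 and Nt5dc2 the run of C and T is followed within a few bases by AG, and in Gpr19 that AG stands directly before the annotated start. Of the 34 enriched clusters in these windows 33 began upstream of the annotated start, as did 77 of the 81 others.

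Low clusters inside such windows are shown for contrast, the 4 lowest by the same naming rule. Gm42092, left out by that rule, stood at -2.14 in the authors' deposited table with a longest run of 8 bases.
Polr3e: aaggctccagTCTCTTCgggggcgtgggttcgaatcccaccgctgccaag
Rps19: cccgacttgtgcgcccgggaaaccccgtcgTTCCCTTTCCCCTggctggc
Rpl14: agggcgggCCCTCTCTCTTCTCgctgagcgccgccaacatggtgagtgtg
Rpl35a: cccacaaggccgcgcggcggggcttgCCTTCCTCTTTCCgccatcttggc

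The log2 folds were -2.58 at Polr3e (chr7:120917551-120917600, where a leucine tRNA gene holds the cluster centre), -2.23 at Rps19 (chr7:24884601-24884650), -2.04 at Rpl14 (chr9:120571501-120571550) and -1.65 at Rpl35a (chr16:33056451-33056500) in the authors' deposited table, all on the plus strand. The runs of 13, 14 and 13 bases at the 3 ribosomal protein genes were as long as those of Grik5 (14) and Nt5dc2 (12), which stood far above input. A long run of C and T in these windows was thus found at both ends of the scale.

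Over all 115 clusters, pyrimidines made up a median of 65.0% of the bases of the 34 enriched clusters and 58.0% of the 81 others, against 50% in the 197076 tiles of 50 nt cut from all promoter windows of the reference. A run of 10 or more C and T stood in 17 of 34 enriched clusters (50%), in 28 of 81 others (34.6%) and in 9.02% of the tiles. Enriched clusters were richer in pyrimidines than the rest of their own window in 26 of 34 cases, and the others in 61 of 81. Enriched and other clusters both lay above the tiles in pyrimidine content. On the strand of the gene TTCTT occurred in 8 of the 34 enriched clusters (23.5%), 7 of the 81 others (8.64%) and 6.73% of the tiles. CTCTC occurred in 23.5%, 17.3% and 7.21%, and TTTTT in 17.6%, 21.0% and 5.28%. The letters of the opposite strand, AAGAA, stood in 0 of the 34 enriched clusters and in 6.89% of the tiles, GAGAG in 1 of 34 and 7.66%, and AAAAA in 1 of 34 and 5.16%. The enriched clusters include 7 wider than the tiles, which have more room for a motif or a run. Among clusters 50 nt wide TTCTT occurred in 5 of 27 enriched clusters (18.5%) and 9.46% of the others, CTCTC in 22.2% and 16.2%, and a run of 10 or more C and T in 51.9% and 33.8%. These motifs can overlap each other in 1 stretch, and a match is a description of the letters only. The 34 clusters hold too few cases to rank motifs.

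Clusters that met microRNA hairpins on their own strand give a further set of sequences. MicroRNAs are short RNAs cut from hairpins, and those cut from very short introns, mirtrons, have a 3′ arm that ends where the intron ends. Of the hairpins in the reference, 40 were met by a cluster, and 33 by at least 20 nt of it, of which 9 lay under an enriched cluster. The arms that lay whole under such enriched clusters are shown because several hold a stretch of C and U before a final AG, with capitals marking the seed (bases 2 to 8).
mmu-miR-6935-3p: uGUUCUUUgucuuuccacag
mmu-miR-6922-3p: uGUUCUGCucacccuucucacag
mmu-miR-7073-3p: aUAGCCUUuuccuccccaacag
mmu-miR-7063-3p: uGCUCUCUgccccucuuaag
mmu-miR-6999-3p: cUUCAGCUguccuccuuucugu
mmu-miR-18a-3p: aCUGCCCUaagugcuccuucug
mmu-miR-3064-3p: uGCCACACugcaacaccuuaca
mmu-miR-8094: aACUGAAGgacaacgagaaga

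The 5′ arms of Mir3064 and Mir6999 lay whole under the same clusters as their 3′ arms, which makes 10 arms in all. Of these 10 arms 3 ended in CAG (30.0%), those of Mir6935, Mir6922 and Mir7073, against 163 of the 1738 mature microRNAs of the reference (9.38%). The median pyrimidine content was 68.2% over the 10 arms and 50% over all mature microRNAs. The clusters over these hairpins had log2 folds of 3.31 at Mir6935, 1.51 at Mir6922, 0.84 at Mir7073, 3.03 at Mir7063, 2.04 at Mir6999, 4.25 at Mir18, 2.12 at Mir3064 and 3.39 at Mir8094 in the authors' deposited table. Mir18, which belongs to the growth-promoting Mir17 cluster, shared its cluster (chr14:115043901-115044000) with the first base of Mir19a. The arm of Mir8094 is the exception in letters, with pyrimidines at only 19.0% of its bases.

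Median pyrimidine content differed between arms under enriched clusters and arms under the others, but single arms of the 2 groups overlapped. The lowest clusters over hairpins were at the 2 copies of Mir3084, inside Eif3a (-3.94) and Cbwd1 (-3.86), and at the hairpin Gm24148 (-3.05), Mir1291 (-2.96) and Mir664 (-2.47) in the authors' deposited table. The cluster of Mir664 was centred in the snoRNA gene Snora36b, and those of Mir5136, Mir3069 and Mir1843b, at -2.21, -1.53 and -1.42 in the authors' deposited table, in Snora57, Scarna13 and Scarna3a.
mmu-miR-3084-5p: gUUGAAGGuuaauuagcagagu
mmu-miR-3084-3p: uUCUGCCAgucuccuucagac
mmu-miR-1291: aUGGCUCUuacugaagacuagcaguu
mmu-miR-664-5p: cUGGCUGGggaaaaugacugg
The 22 arms under clusters that were not enriched had a median pyrimidine content of 47.7%, and 2 of them ended in CAG. Yet mmu-miR-3084-3p, under 1 of the lowest clusters, had 71.4% pyrimidines, more than the median of the enriched arms. The 31 different arms under any cluster had 31 different seeds, so that no seed was shared, and the copies of Mir3084 give the same arms.

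Contacts above input were found in most kinds of transcript, and the small noncoding RNAs stood apart. Protein-coding genes held 27841 clusters, 11096 of them enriched (39.9%, median log2 fold 0.28). Long noncoding RNA genes held 989, with 455 enriched (46.0%, median 0.54), and pseudogenes 871, with 298 enriched (34.2%, median 0.11). Outside annotated genes lay 4045 clusters, with 1520 enriched (37.6%, median 0.18). Of these, 435 were within 5000 nt past a gene's 3′ end and 3561 were farther from any start or end. Small RNA genes held 722 clusters, of which 83 were enriched (11.5%, median -1.43).

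**Figure D1:**
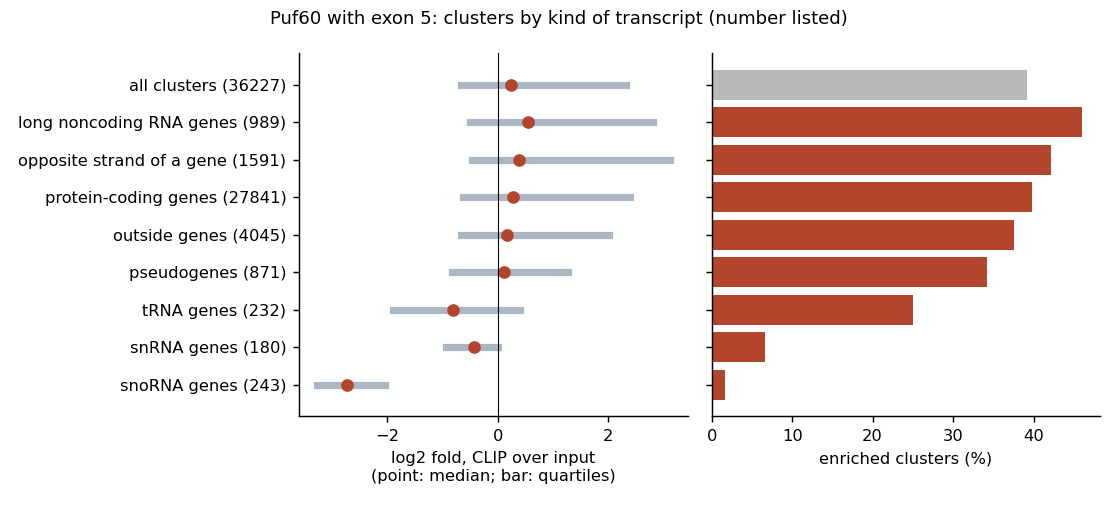
Left, median (point) and quartiles (bar) of the log2 fold of CLIP over input for the clusters of each kind of transcript, with the number listed; right, the share that was enriched. Of the kinds drawn, the snoRNA, snRNA and tRNA genes have medians below 0, and the snoRNA genes lie lowest, at -2.72; small RNA classes with fewer clusters are not drawn.

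The strand given by the cluster grid was set against the RefSeq strand of each gene, which was available for 28029 of 49976 genes. Among clusters inside a single protein-coding gene 20877 of 22245 (93.9%) were on the strand of the gene, with 93.5% of the enriched and 94.1% of the others. For long noncoding RNA genes it was 539 of 752 (71.7%). Clusters that only genes of the opposite strand hold numbered 1591, with 670 enriched (42.1%), among them 11 of 23 opposite Itgbl1 and 8 of 15 opposite Cmah. The strand was not given for the genes of 7774 clusters, Pcbp3 and Pcm1 among them, and these clusters were kept.

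At the level of genes, 7240 genes were given a cluster and 4127 an enriched one. For 4741 and 3035 of them the cluster lay on the gene's annotated strand, and for 2499 and 1092 the gene's strand was not given. Among protein-coding genes, 3663 of 5675 (64.5%) had at least 1 enriched cluster. The contacts were spread unevenly: 1924 of these genes had exactly 1 enriched cluster, 597 had at least 5, 227 at least 10 and 56 at least 20. The 100 leading genes held 21.0% of the enriched clusters in protein-coding genes, and 477 genes held 50% of them. Genes with an enriched cluster had a median length of 36055 nt, listed genes without one 25922 nt, and all protein-coding genes of the reference 17149 nt. How much RNA a gene yields was not measured here, and a count of clusters moves with it.

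Of the genes with the most enriched clusters, several encode factors that act on RNA. After Pcbp3 (92 of 391) and Huwe1 (75 of 123) came Cpsf6, a subunit of cleavage factor I, with 56 of 63 clusters enriched. Rbm26, of the nuclear RNA surveillance machinery, had 45 of 49, Fubp1 35 of 43, the splicing repressor Ptbp2 35 of 48 and the splicing factor Rbm25 30 of 43. The SR-related splicing proteins followed, with Srrm2 at 30 of 47, Srek1 at 27 of 32 and Srrm1 at 26 of 32. Bclaf1, a nuclear protein with an RS domain, had 27 of 36 and Hnrnpu, a scaffold protein of the nucleus, 27 of 55. Other genes among the leading 25 were Rims2, of the presynaptic active zone, with 43 of 104, the ubiquitin ligase gene Herc1 with 32 of 55, and Gnas, of the stimulatory G protein, with 31 of 59. Racgap1 (32 of 84), Setd5 (31 of 52), the nuclear import receptor gene Tnpo1 (29 of 65), Eif3a (27 of 41), Nxf3 (26 of 36), the DNA topoisomerase gene Top2a (26 of 37), Myef2 (25 of 29), Atxn2l (25 of 27) and Pcm1 (49 of 64), of the centriolar satellites, were also among them.

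Among the 692 protein-coding genes with at least 10 clusters, the median gene had 40% of them enriched, 7 had all enriched and 26 none. Those with all enriched were Orc4, of the origin recognition complex (17 of 17), the transcription regulator gene Crebzf (12), the F-box gene Fbxl20 (11), the centriole gene Odf2 (11), Dtx3 (10), the SR-related gene Pnisr (10) and the zinc finger gene Zfp948 (10). Srsf11 (18 of 19), Noc2l (16 of 17), C2cd5 (13 of 14), Celf3 (12 of 13) and Prph, which encodes the neuronal intermediate filament peripherin (11 of 12), were among the next. The genes with the most clusters and none enriched were Ext1, a heparan sulfate synthesis enzyme (26 clusters, median log2 fold -1.21), Ago2, the microRNA effector (18, median -0.65), the cholesterol synthesis gene Cyp51 (16, median -0.06, highest 1.57), the transferrin receptor gene Tfrc (15, median -0.78), Ppm1l (14) and the thrombin receptor gene F2r (14). Fem1b, Ddx3x, the chaperonin gene Cct7 and the fatty acid elongase gene Elovl6 had 13 each. In the table of Puf60 without exon 5 these 10 genes had 0 to 3 enriched clusters each, in that of Rbm38 between 2 (Elovl6) and 20 (Ppm1l).

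Some genes had long strings of enriched clusters with none between them that was not enriched. Over all neighbours the median distance was 1050 nt between enriched clusters and 800 nt between others, and 16.6% against 20.2% lay within 200 nt. There were fewer enriched pairs (5926 against 9832), and sparser clusters lie farther apart. These distances therefore cannot decide whether enriched clusters are grouped. A string of at least 5 successive enriched clusters was found in 324 protein-coding genes, of at least 10 in 52 and of at least 15 in 17. The longest was in Cpsf6, with 43 clusters over 14400 nt (chr10:117348786-117363185) and log2 folds from 0.65 to 4.11 in the authors' deposited table. Srek1 had a string of 20 over 16550 nt, and Prpf39, Ptbp2 and Rbm26 had strings of 19 over 13900, 7200 and 15750 nt. Myef2, Rbm25 and Srsf11 had 18 each.

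The protein's own transcript was among the bound ones. Puf60 (gene 67959, chr15:76070182-76082537, minus strand) had 15 clusters, 12 of them enriched. Besides the highest pair, at chr15:76079536-76079585 (4.88) and chr15:76072586-76072635 (4.44), the log2 folds of the enriched clusters lay between 0.74 and 2.57 in the authors' deposited table. The authors' deposited table puts the 3 clusters that were not enriched at -0.45, 0.15 and 0.35 (log2 fold), the lowest of them 79 nt from the 3′ end. Reads from the transgene and from the endogenous gene cannot be told apart in these clusters. The transgene had also been switched on for longer in the CLIP libraries than in the input, 48 h against 24 h.

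U2af2, the relative of Puf60 at the 3′ splice site, had 11 of 13 clusters enriched, with the highest close together. Between 7166 and 8466 nt from the 5′ end lay 6 clusters, and from 5′ to 3′ the authors' deposited table lists them at 1.80, 3.30, 3.85, 3.75, 5.28 and 6.01 (log2 fold). The highest, at chr7:5069201-5069500, overlapped a cluster of Puf60 without exon 5 at 6.08 and one of Rbm38 at 1.27 in the authors' deposited tables. The 2 clusters nearest the 3′ end, 344 and 144 nt from it, had 1.41 and 1.60, where the Rbm38 cluster stood at 3.25 in the authors' deposited tables. The 2 clusters nearest the 5′ end were not enriched, at -0.72 and 0.45 in the authors' deposited table.

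Fubp1, the partner that Puf60 is named for as FIR, carried enriched clusters over most of its length. Of its 43 clusters 35 were enriched, from 3754 nt after the 5′ end to 79 nt before the 3′ end. The cluster at chr3:152227351-152227550 had a log2 fold of 7.24, while the clusters on either side of it, 50 nt away, had 2.90 and 0.37 in the authors' deposited table. The widest, 1650 nt at chr3:152231951-152233600, had 4.32 in the authors' deposited table. Of the Fubp family, Fubp3 had 2 of 5 clusters enriched and Khsrp 6 of 10. Myc had 3 of 6: the log2 folds from the 5′ to the 3′ end were -1.10, 1.60, 3.01, 2.98, 0.30 and 0.17 in the authors' deposited table. The last 2, 185 and 35 nt from the 3′ end, were not enriched, and overlapped Rbm38 clusters at 2.63 and 2.60 in the authors' deposited tables. Max, the partner of Myc (1 of 1), and Mga (3 of 4) were listed too, while Mycn had no cluster in this table. Over the 10 genes of this list 50 of 69 clusters (72.5%) were enriched and the median log2 fold was 2.55, but Fubp1 alone gave 43 of the 69.

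**Figure D2:**
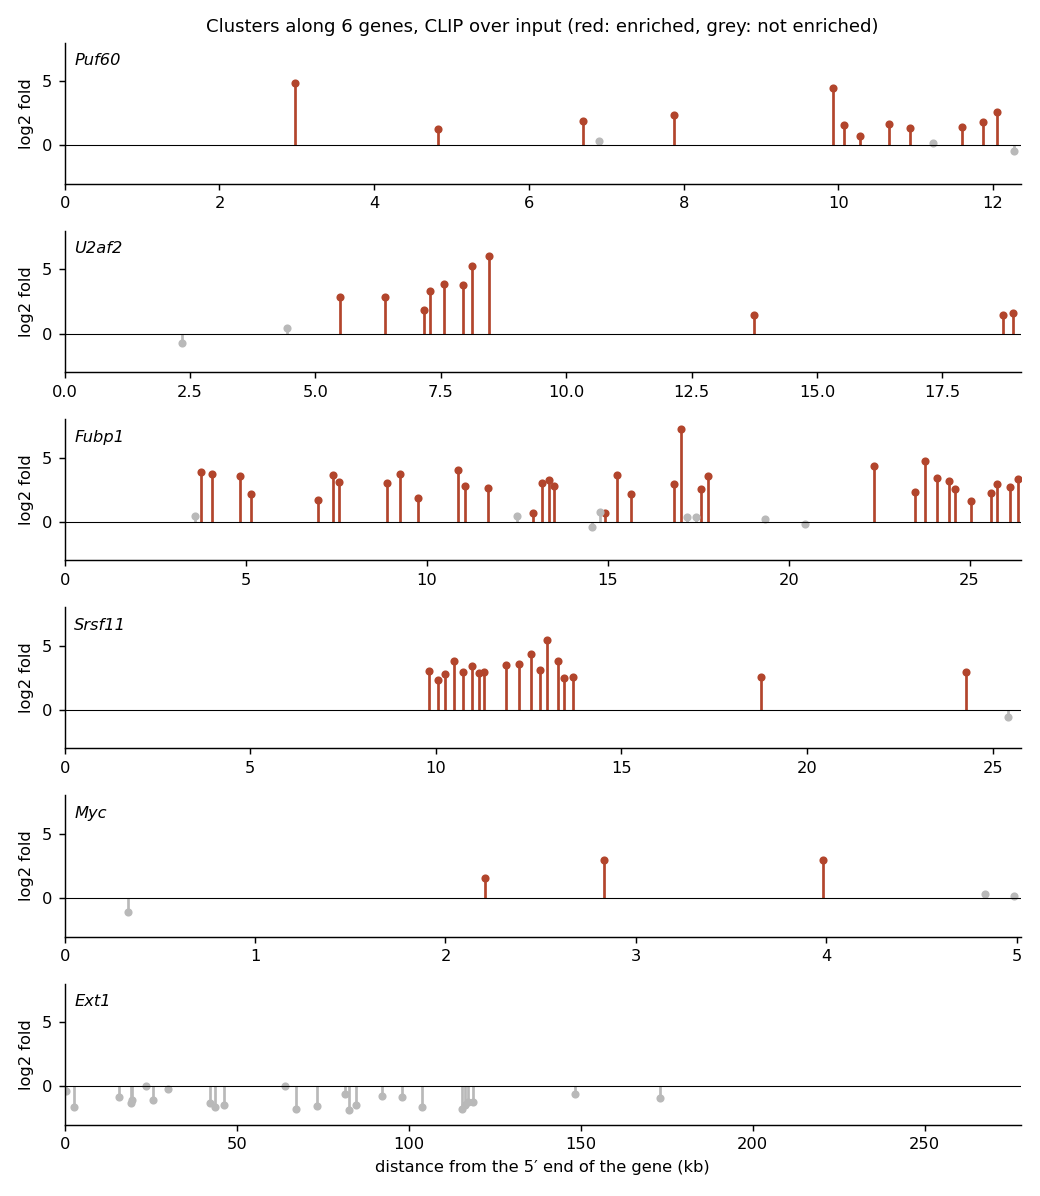
Log2 fold of CLIP over input for every cluster in 6 genes against the distance from the 5′ end of the gene in kb (red, enriched; grey, not enriched). U2af2 reaches 6.01, 8466 nt from its start, Fubp1 has a single peak of 7.24, most of the 18 enriched clusters of Srsf11 lie between 9806 and 13681 nt, and Ext1, whose strand was not given and whose distances follow the strand of its clusters, has none.

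The factors that recognise the 3′ splice site were among the gene lists with the larger enriched shares. Of their 26 genes 18 had clusters and 15 had an enriched one, and 128 of 213 clusters (60.1%) were enriched, with a median log2 fold of 1.41 against 0.24 over all clusters. Ddx39b, a helicase that works with U2af2, had 17 of 22, Sf1, the branch point binding protein, 19 of 35, Rbm39, a U2af2 relative, 21 of 38, and the U2 snRNP subunit genes Sf3b3 and Sf3b1 15 of 26 and 7 of 9. U2af1, the small subunit that reads the AG, had 4 of 7. Sf3b2, Sf3b5 and Cherp were listed with none enriched.

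Core spliceosome genes came close to this by clusters, with 169 of 293 enriched (57.7%, median 1.38) and 23 of 34 listed genes with at least 1. With each gene counted once by its median cluster they did not: the share was 41.2%, against 61.1% for the 3′ splice site factors and 34.1% over all genes. Several genes for U1-associated and RS-rich proteins had large shares: Prpf39 had 19 of 21, Acin1 11 of 14, Prpf38b 11 of 14 and Luc7l3 10 of 14. Others of this kind had smaller ones, with Snrnp70 at 15 of 26 and Luc7l2 at 18 of 50. Snrpc, which encodes a U1 snRNP protein, had 0 of 2. Genes for the small Sm proteins had few clusters and low folds, with Snrpb at 0 of 4 (median -1.25) and Snrpg at 0 of 2. Prpf8, at the centre of the spliceosome, had 2 of 8.

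SR proteins bind exons and recruit the splicing machinery, and many of their genes contain poison exons, which bring a stop codon into the transcript. Here 22 of 25 listed genes had an enriched cluster, with 190 of 311 enriched (61.1%, median 1.71). Srsf11 had 18 of 19, with its highest cluster at chr3:158023536-158023785 (5.46), and the only one not enriched, at -0.58 in the authors' deposited table, lay 346 nt from the 3′ end. Srsf1 had 14 of 16, Srsf5 12 of 14, Srsf7 11 of 16, Srsf10 19 of 34 and Srsf3 10 of 18, and the SR protein kinase gene Clk1 8 of 9. Tra2a was the exception among genes with many clusters, with 5 of 37 enriched and a median log2 fold of -0.37. Srsf4 and Srsf9 had 2 clusters each and none enriched.

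The hnRNP genes, whose proteins coat nuclear RNA and often act against SR proteins, had 340 of 827 clusters enriched (41.1%, median 0.45), with 391 of the 827 in Pcbp3. The median over the genes' own medians was 1.07. Hnrnpk had 22 of 27, Hnrnph1 12 of 14, Hnrnpa1 15 of 21, Hnrnpl 19 of 31, Pcbp2 23 of 39 and Ptbp1, the best known binder of pyrimidine tracts, 12 of 20. Hnrnpa0 (7 clusters), Raly (5), Pcbp1 (4) and Hnrnpul2 (2) had none. Splicing regulators of neurons and muscle had 192 of 349 enriched (55.0%, median 1.23), but 41.4% with each gene counted once by its median cluster. The median over these genes' own medians was 0.49. Of the 192 enriched clusters Rbm26 gave 45 (of 49 listed) and Rbm25 30 (of 43). Tial1 (16 of 19) and Tia1 (9 of 12), which bind uridine-rich stretches, Srrm4 (5 of 6), the regulator of neuronal microexons, and Rbm6 (6 of 6) were at the upper end. Elavl1 (4 of 25), Msi2 (2 of 13) and Mbnl2 (1 of 8) were at the lower end, and Elavl3 had 4 clusters and none enriched. In the Rbm38 table Elavl1 had 18 of 33 and Msi2 17 of 27.

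Among genes for cleavage and polyadenylation 92 of 126 clusters were enriched (73.0%, median 2.32), but Cpsf6 alone gave 63 of the 126 and 56 of the 92, and the median over the genes' own medians was 1.09. Pabpn1, the nuclear poly(A)-binding protein, had 8 of 9, Papola, the poly(A) polymerase, 8 of 14, Wdr33 4 of 5 and Cstf2 3 of 4, while Nudt21, the partner of Cpsf6, had 3 clusters and none enriched. HECT ubiquitin ligase genes had 177 of 315 enriched (56.2%, median 1.04), with Trip12 at 11 of 16 and Nedd4 at 1 of 8. Chromatin regulator genes had 236 of 542 (43.5%, median 0.43), with Atrx at 7 of 8, Bptf at 6 of 7, Kmt2d at 20 of 35 and Ankrd11 at 22 of 140. DEAD and DEAH box helicase genes had 63 of 136 (46.3%, median 0.69). Within them Ddx17 had 22 of 36 and its close relative Ddx5 11 of 19, whereas Ddx3x had 0 of 13.

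Ribosomal protein genes had a smaller enriched share than all clusters. All 77 cytosolic ribosomal protein genes had clusters, 52 had an enriched one, and 159 of 476 clusters (33.4%, median 0.06) were enriched. Rps24 had 9 of 13, Rpl3 8 of 15, Rpl4 8 of 11 and Rpl12 7 of 9, and Rpl8, Rpl18 and Rps3 had none. Within Rpl3 high and low clusters were mixed along the gene: the 8 enriched ones lay between 0.41 and 2.60 and the 7 others between -0.61 and 0.53 in the authors' deposited table. Translation factor genes had 185 of 430 enriched (43.0%, median 0.47), but 25.7% with each gene counted once by its median cluster, below the 34.1% over all genes. They ranged widely, with Eif4g2 at 20 of 28, Eif4g1 at 21 of 38 and Eif3c at 12 of 18, against 2 of 13 for Eef1a1 and 3 of 17 for Pabpc1.

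The axon guidance and neuronal microtubule genes had the smallest shares of the 15 lists by clusters, but not by genes: with each gene counted once, by its median cluster, the axon guidance share was 45%, above the 34.1% over all genes, and that of the microtubule genes 32%. Axon guidance genes had 67 of 471 clusters enriched (14.2%, median -0.40), of which the ephrin gene Efna5 gave 11 of 227 and the netrin receptor gene Unc5c 18 of 143. Efna5 also held 1 of the 10 highest clusters of the table, 6.89 at chr17:62603536-62603635 in the authors' deposited table. Outside these 2 genes the list held single strong clusters, at Unc5d (5.61), Ephb2 (5.58), Epha4 (5.55) and Epha5 (5.33) in the authors' deposited table, each the only cluster of its gene. The guidance ligand genes Slit2 and Slit3 had 11 of 21 and 6 of 10. Neuronal microtubule genes had 71 of 330 enriched (21.5%, median -0.28), with Map1b at 19 of 185. Clasp2, which stabilises microtubule ends, had 11 of 20, Dclk1 4 of 4 and Dcx 2 of 2, whereas the neuronal tubulin gene Tubb3 had 0 of 12 and Stmn2 0 of 6.

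**Figure D3:**
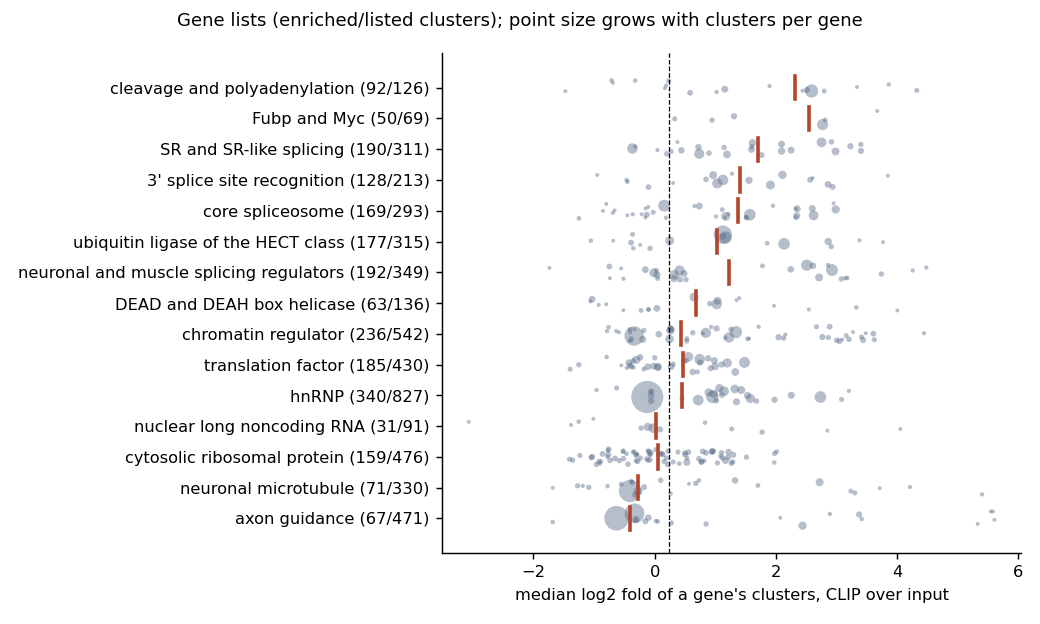
Each point is a gene of 1 of 15 lists, placed at the median log2 fold of its clusters and sized by how many it has; red lines mark the median over all clusters of the list, and the dashed line that over all 36227 clusters (0.24). Large points such as Pcbp3, Efna5 and Map1b lie to the left of most members of their lists.

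Markers of N2A cells were checked. Of 18 markers of sympathetic neuroblasts 10 had a cluster and 6 an enriched one, among them Hand2 (9 of 10), Elavl4 (14 of 35), Gap43 (3 of 6), Chga (1 of 3) and Chgb (1 of 9). Gata3, Isl1, Mycn, Th, Dbh, Nefl and Nefm were among those with no cluster. Of 7 fibroblast, 7 glial and 6 blood and endothelial markers 1 each had a cluster, among them Thy1 and Pecam1. Hand2, a transcription factor of the sympathetic lineage, was covered along its length, with its highest clusters at 1368 nt from the 5′ end (3.05) and at 2968 nt (3.35) in the authors' deposited table.

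Among long noncoding RNAs, Dleu2, the host of Mir15a and Mir16-1, had 37 of 47 clusters enriched (median log2 fold 2.44). The 2 long noncoding RNAs beside Hand2 had smaller shares, Hdnr 19 of 52 and Hand2os1 11 of 35. Xist, which coats the inactive X chromosome, had 10 of 22, Neat1, the scaffold of paraspeckles, 7 of 31. Malat1 had 1 of 3, but that cluster was 6050 nt wide in a gene of 6983 nt and stood at 2.56 in the authors' deposited table. Over the 13 listed genes of the nuclear long noncoding RNA list 31 of 91 clusters (34.1%, median 0.03) were enriched, and 15.4% with each gene counted once. On the X chromosome, which holds Huwe1, 539 of 1094 clusters were enriched (49.3%, median 0.73), and 464 of 971 (47.8%) without Huwe1. The mitochondrial chromosome had 19 clusters and none enriched (median -2.49).

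Position along genes was measured for 21951 clusters in protein-coding genes of annotated strand, 40.0% of them enriched. The share was highest in the middle: with gene bodies cut into 10 equal lengths, it was 30.8% in length 1 at the 5′ end, 49.4% in length 4, 54.5% in length 7 and 26.3% in length 10 at the 3′ end. Length 10 nevertheless held the most clusters, 5925. By distance, 9.83% of the 478 clusters within 100 nt of the 3′ end were enriched, 21.2% of those at 100 to 500 nt, 29.3% at 500 to 2000 nt and 46.6% at 2000 to 10000 nt. At the 5′ end the first 100 nt gave 18.4% of 207 clusters and the stretch from 500 to 2000 nt 45.9%. Gene length alone made less difference, with 34.1% in genes under 5000 nt, 44.2% in genes of 20000 to 50000 nt and 33.1% in genes of 100000 nt or more. Exon positions were not used here, and introns, exons and splice sites were not told apart.

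**Figure D4:**
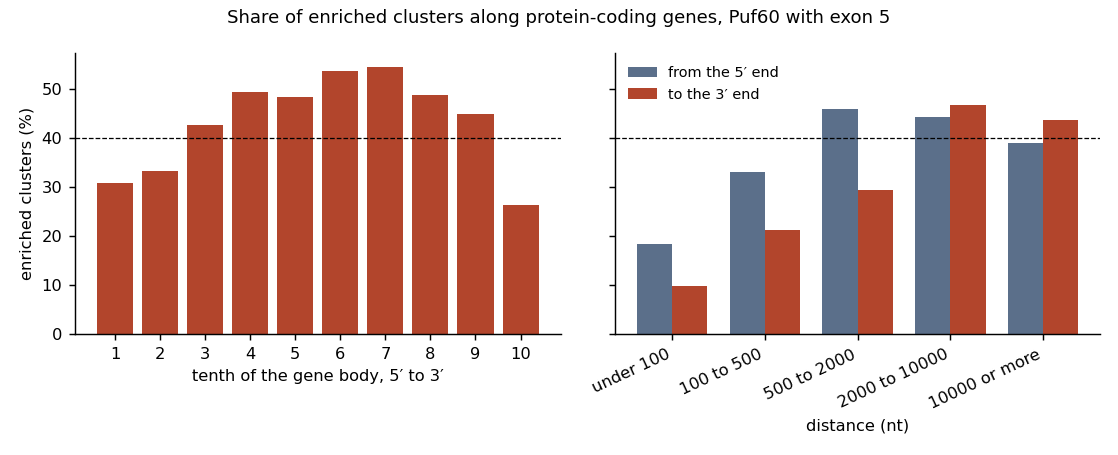
Share of clusters enriched in 10 equal lengths of the gene body (left) and by distance from the 5′ end (blue) or to the 3′ end (red) in nt (right), over 21951 clusters in protein-coding genes; the dashed line is their overall share (40.0%). The share is highest in length 7 (54.5%) and is 9.83% within 100 nt of the 3′ end.

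The highest cluster of a named gene lay in Ppp1r12a, a myosin phosphatase subunit gene (7.47), and the lowest in Serpine3 (-5.27) in the authors' deposited table. With predicted and locus-named genes left out, the rest of the 10 lowest, 1 per gene, included several small RNA genes: Snord45b (-5.14), Snora17 (-4.51), the methionine tRNA gene n-TMcat2 (-4.44), Snord118, the U8 snoRNA (-4.17), Snord15a (-4.05) and Snord13 (-3.94) in the authors' deposited table. Nop58 (-4.11), which encodes a snoRNP core protein, and Eif3a (-3.94) were the others with Ero1b (-4.06) in the authors' deposited table. The low cluster of Eif3a covered the hairpin of Mir3084-2.

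Small RNA genes were mostly below input. Of 243 clusters in snoRNA genes, which guide the modification of ribosomal RNA, 4 were enriched (1.65%, median log2 fold -2.72). Of 180 in genes annotated as snRNA, which include U3 and Rn7sk genes beside those of the spliceosome, 12 were enriched (6.67%, median -0.42). Rpph1, the RNA of RNase P, stood at -3.07 and Rmrp at -1.01, while the Y RNA gene Rny1 was enriched at 1.29 in the authors' deposited table. Many of these genes are copies of nearly the same sequence, and the sources used here do not say how reads were shared among copies. The strand was not given for the snoRNA, snRNA and tRNA genes of highest and lowest log2 fold. A cluster centred in such a gene was given to it whichever strand the cluster lay on.

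Among the larger small RNA classes the tRNA genes had the highest share, with 58 of 232 clusters enriched (25%, median -0.81). Enriched clusters were found in 12 of 24 arginine, 9 of 13 threonine, 9 of 16 serine and 7 of 16 lysine tRNA clusters, and in none of the 13 valine, 14 methionine, 11 isoleucine, 9 tyrosine, 6 cysteine and 4 phenylalanine ones, by the gene symbol. The highest were in n-TGccc3 (3.17), n-TQctg2 (3.09), n-TRccg2 (2.99), n-TAtgc1 (2.84) and n-TTcgt2 (2.71) in the authors' deposited table, of the glycine, glutamine, arginine, alanine and threonine families. Of the 232 clusters 228 overlapped one in the table of Puf60 without exon 5, and 217 of these 228 (95.2%) had the higher log2 fold with exon 5. The median difference was 1.35, against 0.28 for 165 snRNA clusters, 0.17 for 237 snoRNA clusters and 0.09 for 15114 clusters in protein-coding genes. Of the 58 enriched tRNA clusters only 3 overlapped an enriched cluster of Puf60 without exon 5, but 22 (37.9%) overlapped an enriched one of Rbm38. Over enriched clusters of all kinds the Rbm38 share was 22.2%. Where a tRNA cluster overlapped one in another table, the median log2 fold there was -1.94 for Puf60 without exon 5 and -0.71 for Rbm38. The higher tRNA values are thus not particular to Puf60 with exon 5 among the 3 tables. The Puf60 CLIP libraries also differed in induction, 48 h with exon 5 against 24 h without it. Each Puf60 table was also set against its own single input. Isoform, time and input therefore cannot be told apart here.

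Clusters far above input were mostly shared with the other isoform. Of the 1536 enriched clusters with a log2 fold up to 1, 33.9% overlapped an enriched cluster of Puf60 without exon 5. It was 57.1% of the 2798 between 1 and 2, 64.7% of the 4197 between 3 and 4, 93.3% of the 1736 between 4 and 5, and 99.7% of the 658 above 5. For Rbm38 the share was 44.1% in the lowest class, 10.7% between 3 and 4, and 22.2% above 5. Over all enriched clusters it was 64.2% and 22.2%. The clusters above 5 lay in protein-coding genes in 64.3% of cases and outside genes in 17.0%, against 81.7% and 9.05% for those between 3 and 4.

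**Figure D5:**
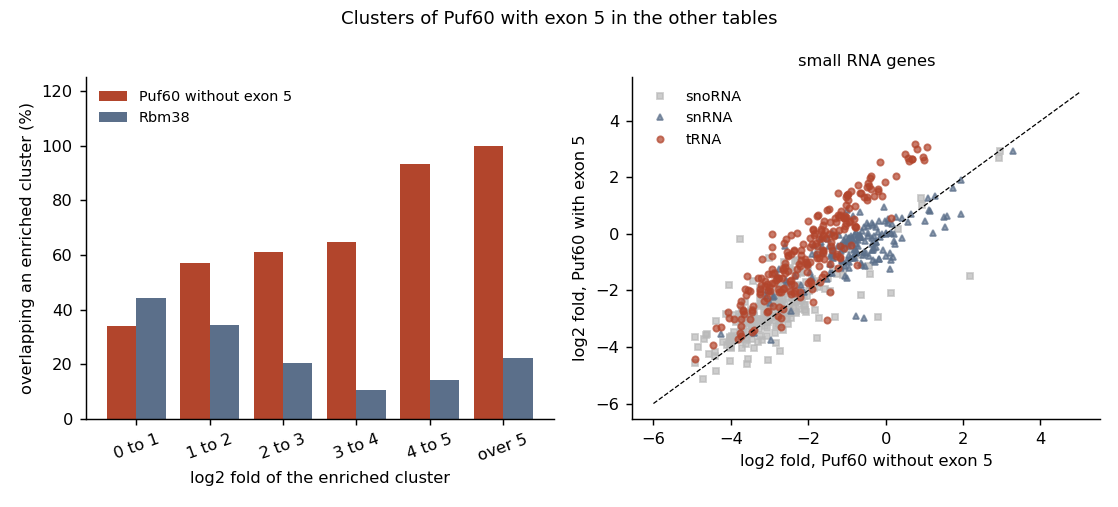
Left, share of enriched clusters of Puf60 with exon 5, by log2 fold, that overlap an enriched cluster of Puf60 without exon 5 (red) or of Rbm38 (blue); right, log2 folds of overlapping clusters in tRNA (red), snRNA (blue) and snoRNA (grey) genes in both Puf60 tables, with the line of equal values. The red bars reach 99.7%, and most tRNA points lie above the line.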

How the data were processed

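The authors compared 3 CLIP libraries of Puf60 with exon 5 with 1 size-matched input. They deposited for each cluster a log2 fold, its p-value and the adjusted form of it, per the file headers. TopHat, edgeR and the builds NCBIM37 and mm10 are named in the submitters' processing notes, without versions or roles. How clusters were called is not given in the sources used here, and 72.9% of clusters share their log2 fold and p-value with another one.

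Strand was read from cluster starts, which are multiples of 50 (plus) or 35 above one (minus). Each cluster was given to the RefSeq gene (GRCm38.p6) that holds its centre on its strand, small RNA genes first. Tests over libraries had been planned for the case of values per library and were not made. The scripts were tested on simulated data. Members, the 15 gene lists and the 4 marker lists were chosen with earlier results of these data known.

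The rule for named genes took the 25 protein-coding genes with the most enriched clusters, the 15 with the highest enriched share and the 10 with the most clusters and none enriched, up to 5 members per list with the most enriched clusters and the one with the most clusters and none enriched, the 10 highest and 10 lowest clusters (1 per gene, leaving out predicted genes, pseudogenes and genes named by clone or locus number), the extremes of each noncoding class, and Puf60, Rbm38, Fubp1, Myc and U2af2. Rbm38 had no cluster in this table. Some genes that the rule or the lists hold are not reported here. Further list members, Hand2 and the genes of the strings and sequences were chosen after their values were seen. Python 3.11.15, pandas 2.3.3, numpy 2.4.6 and matplotlib 3.10.9 were used.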

Additional observations from a re-analysis of the deposited data

How the results depend on the processing

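No paired analysis was possible because the deposited table holds no value per library; for the same reason leaving out each replicate was not run. The 14182 enriched clusters became 13745 at an adjusted p under 0.01, 12646 with a log2 fold above 1 and 15540 with Benjamini-Hochberg over the deposited p-value. Merging touching clusters or leaving out the mitochondrial chromosome left 14182. The 4127 genes with an enriched cluster became 1837 where at least 2 enriched clusters were asked for, and 3859 to 4047 under the 4 other choices. At an adjusted p under 0.01 the enriched share was 38.6% in protein-coding genes, 50.3% in lengths 4 to 7 of the gene body (51.6% before) and 25% in length 10, and 21.2% of enriched clusters overlapped an enriched Rbm38 cluster. With a log2 fold above 1 the shares were 35.7% in protein-coding, 41.2% in long noncoding, 7.34% in small RNA and 15.5% in tRNA genes. With each gene counted once the protein-coding share was 37.0%, and the position shares were 50.2% and 28.3%. In genes of at least 20000 nt the position shares were 50.3% and 27.9%. Where at least 50% of both clusters had to overlap, 58.9% were shared with Puf60 without exon 5 and 16.4% with Rbm38. Of the 15 gene lists, 13 kept their side of the share over all clusters with a log2 fold above 1 (the hnRNP and translation factor lists did not) and 13 with each gene counted once (the translation factor list, at 25.7%, and the axon guidance list, at 45%, did not). The causes were not tested. Depth is unknown, so the absence of a cluster or of an enriched call is no measure of absence of binding.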
